A study of Homo sapiens with 30 samples.

Results

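The enzymes and regulators of sterol and fatty acid synthesis were followed through a day of BMP7 treatment in 5 human breast cancer cell lines. The list held 30 genes, chosen by symbol: the sterol-sensing and transcription factor genes INSIG1, SREBF1 and SREBF2, 7 genes of the mevalonate branch, 11 of the squalene and sterol branch, 7 of fatty acid synthesis, and 2 of lipid handling, STARD4 and LPIN1. All 30 were on the array, with 49 of its 41000 probes, and 42 of those probes passed the filter for testing, at least 1 for each gene. Each gene was read from its brightest probe over all arrays, and the further probes of a gene were used to check its direction. The lines were HCC1954, MDA-MB-231, MDA-MB-361, T-47D and ZR-75-30, established lines that the study selected for low BMP7 of their own. Each line was given recombinant human BMP7, a secreted ligand of the TGF-beta superfamily, or vehicle, and was collected at 30 min and at 1, 3, 6, 12 and 24 h. On each of the 30 two-colour arrays the RNA of BMP7-treated cells carried Cy5 and that of vehicle-treated cells of the same line and time carried Cy3. Cultures were made in triplicate and pooled before labelling, so each line and time has a single array, and p-values measure the spread between times or between lines and not between cultures. The dye orientation was the same on all arrays, so a probe that favours 1 dye shifts its mean ratio, while differences between times or lines are free of a shift that is the same throughout. Per the study's methods, MDA-MB-231 and T-47D were grown with less serum than recommended for them, MDA-MB-231 with the least, so that serum and line cannot be told apart.

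Cells make cholesterol from acetyl-CoA through mevalonate, farnesyl diphosphate, squalene and lanosterol. SREBP-2, the product of SREBF2, switches on most enzymes of this route when membrane sterol is low, and SREBP-1, the product of SREBF1, acts mainly on fatty acid genes. INSIG1 holds the SREBP precursors in the endoplasmic reticulum when sterol is plentiful, and is itself an SREBP target, so that transcripts of the pathway are known to move together with the sterol supply of the cell, which in culture depends on serum. Breast cancer cells commonly carry high levels of fatty acid synthesis enzymes.

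Among the 30 arrays, 51.7% to 68.1% of probes were well above background in both channels, and the median log2 BMP7/vehicle of the 30 genes lay between -0.14 and 0.19 on every array. The ZR-75-30 array at 6 h stood apart, with a standard deviation of all log2 ratios of 0.60 against 0.17 to 0.42 on the other arrays. In the vehicle channel each array was most like the other arrays of its own line (median r 0.930 to 0.994, against at most 0.912 with an array of another line). The MDA-MB-231 array at 6 h (0.930) and the T-47D arrays at 3 h (0.936) and 24 h (0.949) were the least alike within their lines, and results that change without them are given below. Read from their brightest probes, CDH1, KRT8, KRT18, KRT19 and ERBB2 were well above background in the vehicle channel of 30 of 30 arrays, and the leukocyte gene PTPRC on 0 of 30. GATA3 was so on 30, VIM and GRB7 on 29 each, CDH2 on 12, PGR on 11 and ZEB1 on 6. Levels differed between lines. The mean vehicle level of CDH1 (log2, relative to the array's 75th percentile) was -1.81 in MDA-MB-231 and 4.83 to 6.78 elsewhere. The mesenchymal gene VIM was at 6.92 in MDA-MB-231 and 4.41 in HCC1954, against -4.84 to -2.03 in the other lines. ERBB2 ran from 1.95 in MDA-MB-231 to 7.24 in MDA-MB-361. The brightest ESR1 probe was well above background in the vehicle channel on 24 arrays and on 0 of 6 in MDA-MB-231. A further ESR1 probe, above background in both channels on 26 arrays, was above it in MDA-MB-231 as well. CD68, a macrophage gene that tumour lines can express, and the endothelial PECAM1 were above background on 21 and 9 arrays. ID1 and ID2, direct BMP targets, were higher with BMP7: the mean log2 ratio over lines was 0.81 ± 0.12 (SE, n = 5 lines, limma adjusted p = 0.0224) for ID1, positive on 29 of 30 arrays, and 0.92 ± 0.11 (adjusted p = 0.0105) for ID2, positive on 28 of 29. ID3, at 0.63 and positive on 25 of 30, did not pass this test, and its mean in T-47D was 0.12. SMAD6 was too dim to be tested. Any fixed dye effect is part of these means.

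The promoters of 4 genes are printed, and no test of expression used them. SREBF2 holds the only match to the sterol element searched among the members with a window. HMGCS1 and INSIG1 are sterol-responsive genes followed over the day, and MVD is the enzyme whose ratio rose with time. Each printed sequence is the window of 250 bases before the RefSeq start on GRCh38.p14, 5′ to 3′ on the gene's own strand, with motif matches in capitals. The motifs were the sterol regulatory element TCACNCCAC and the NF-Y box CCAAT, which reads ATTGG on the other strand, both searched on both strands. HMGCS1 has 2 windows in the table, and the other one (chr5:43313182-43313431), not printed, holds 0 matches to either motif.
SREBF2 (chr22:41832855-41833104, plus strand): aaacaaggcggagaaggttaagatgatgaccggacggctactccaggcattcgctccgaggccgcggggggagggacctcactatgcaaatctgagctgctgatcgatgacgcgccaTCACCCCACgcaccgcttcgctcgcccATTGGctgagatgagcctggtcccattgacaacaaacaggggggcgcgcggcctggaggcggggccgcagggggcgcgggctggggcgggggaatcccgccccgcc
HMGCS1 (chr5:43313413-43313662, minus strand): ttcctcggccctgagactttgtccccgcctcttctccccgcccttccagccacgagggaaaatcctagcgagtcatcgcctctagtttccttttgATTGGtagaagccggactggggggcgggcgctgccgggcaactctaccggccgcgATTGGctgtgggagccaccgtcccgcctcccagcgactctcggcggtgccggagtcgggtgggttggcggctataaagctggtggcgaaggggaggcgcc
INSIG1 (chr7:155297628-155297877, plus strand): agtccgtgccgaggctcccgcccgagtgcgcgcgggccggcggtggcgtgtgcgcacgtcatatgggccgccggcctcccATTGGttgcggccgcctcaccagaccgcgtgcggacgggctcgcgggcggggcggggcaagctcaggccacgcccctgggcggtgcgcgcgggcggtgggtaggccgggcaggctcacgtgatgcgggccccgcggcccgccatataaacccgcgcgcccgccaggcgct
MVD (chr16:88663092-88663341, minus strand): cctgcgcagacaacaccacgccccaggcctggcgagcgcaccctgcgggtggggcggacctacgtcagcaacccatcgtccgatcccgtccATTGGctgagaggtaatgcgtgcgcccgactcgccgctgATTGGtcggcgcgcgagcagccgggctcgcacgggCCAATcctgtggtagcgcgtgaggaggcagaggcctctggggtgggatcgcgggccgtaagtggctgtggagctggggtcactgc
Of the 30 members, 26 had a window in the RefSeq promoter table, 2 of them under a newer symbol (SC4MOL as MSMO1 and SC5DL as SC5D), and SQLE, FDFT1, ACAT2 and FASN were not in it. TCACNCCAC was found in 1 of 26 members, SREBF2, and in 0.883% of the 35116 windows of all genes, or 1.09% of genes. CCAAT was found in 19 of 26 members and in 32.0% of all windows, or 37.0% of the 27305 genes with at least 1 window. A match describes the letters in these windows and not binding.

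None of the 30 genes passed the test for a BMP7 effect over the 5 lines as a whole. With each line's 6 arrays averaged first, 0 of 30 members passed the limma test in either direction, against 0.547% of the 21011 probes tested that were higher and 0.252% that were lower with BMP7. At an unadjusted p under 0.05 the count was 4 (STARD4, MVK, SREBF2 and TM7SF2). The members' median log2 ratio was -0.02 and 12 of 30 were positive, next to a median of 0.00 over all probes. The members ranged from -0.18 for TM7SF2, a sterol reductase, to 0.20 for STARD4, an intracellular sterol carrier. With normexp background correction and median scaling, which moved the median of all probes by 0.11, 6 members passed, all higher, as did 11.2% of all probes, 2342 of 2344 of them higher.

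By role, the regulators had medians just below 0: INSIG1 ranged from -0.93 to 0.46 over 30 arrays (median -0.05) and was positive on 9, SREBF1 from -0.72 to 0.31 (median -0.02), and SREBF2 from -0.79 to 0.14 (median -0.10), positive on 5. In the mevalonate branch, HMGCS1, which makes HMG-CoA, ran from -0.49 to 0.79 (median 0.16, positive on 19 of 29 arrays), and IDI1, the isopentenyl diphosphate isomerase, from -0.31 to 0.26 (median 0.07). FDPS, the farnesyl diphosphate synthase, was the most even of the members, with all 30 log2 ratios between -0.11 and 0.13. These ranges all span 0. In the sterol branch, SQLE, the squalene epoxidase, ran from -1.02 to 0.67 (median -0.02), and LSS, which closes squalene epoxide to lanosterol, from -0.67 to 0.25 (median -0.10, positive on 8 of 30). Among the fatty acid genes, FASN, the fatty acid synthase, ran from -0.74 to 0.43 (median -0.08), and SCD, the stearoyl-CoA desaturase, from -0.41 to 0.84 (median 0.20, positive on 20 of 30). STARD4 had the highest share of positive arrays, 23 of 30, with a range of -0.44 to 0.79 and a mean over lines of 0.20 ± 0.067 (SE, n = 5 lines, limma adjusted p = 0.189). The other members, among them ACAT2, which makes acetoacetyl-CoA, PMVK, the phosphomevalonate kinase, and DHCR7, which makes cholesterol from its last precursor, had medians within the same span of -0.21 to 0.26. FDFT1, the squalene synthase, ranged from -0.49 to 0.36, NSDHL, a sterol dehydrogenase, from -0.18 to 0.28, and ELOVL6, a fatty acid elongase, from -0.28 to 0.20.

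The probes of 1 gene did not always point the same way. Of the 12 members with more than 1 tested probe, 5 had means over lines of opposite sign (SCD, ACAT2, HMGCS1, CYP51A1 and SC5DL). For SCD the brightest probe gave 0.18 ± 0.087 (SE) and the further probe -0.17 ± 0.049, and neither passed the limma test (adjusted p = 0.355 and 0.155).

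**Figure D1:**
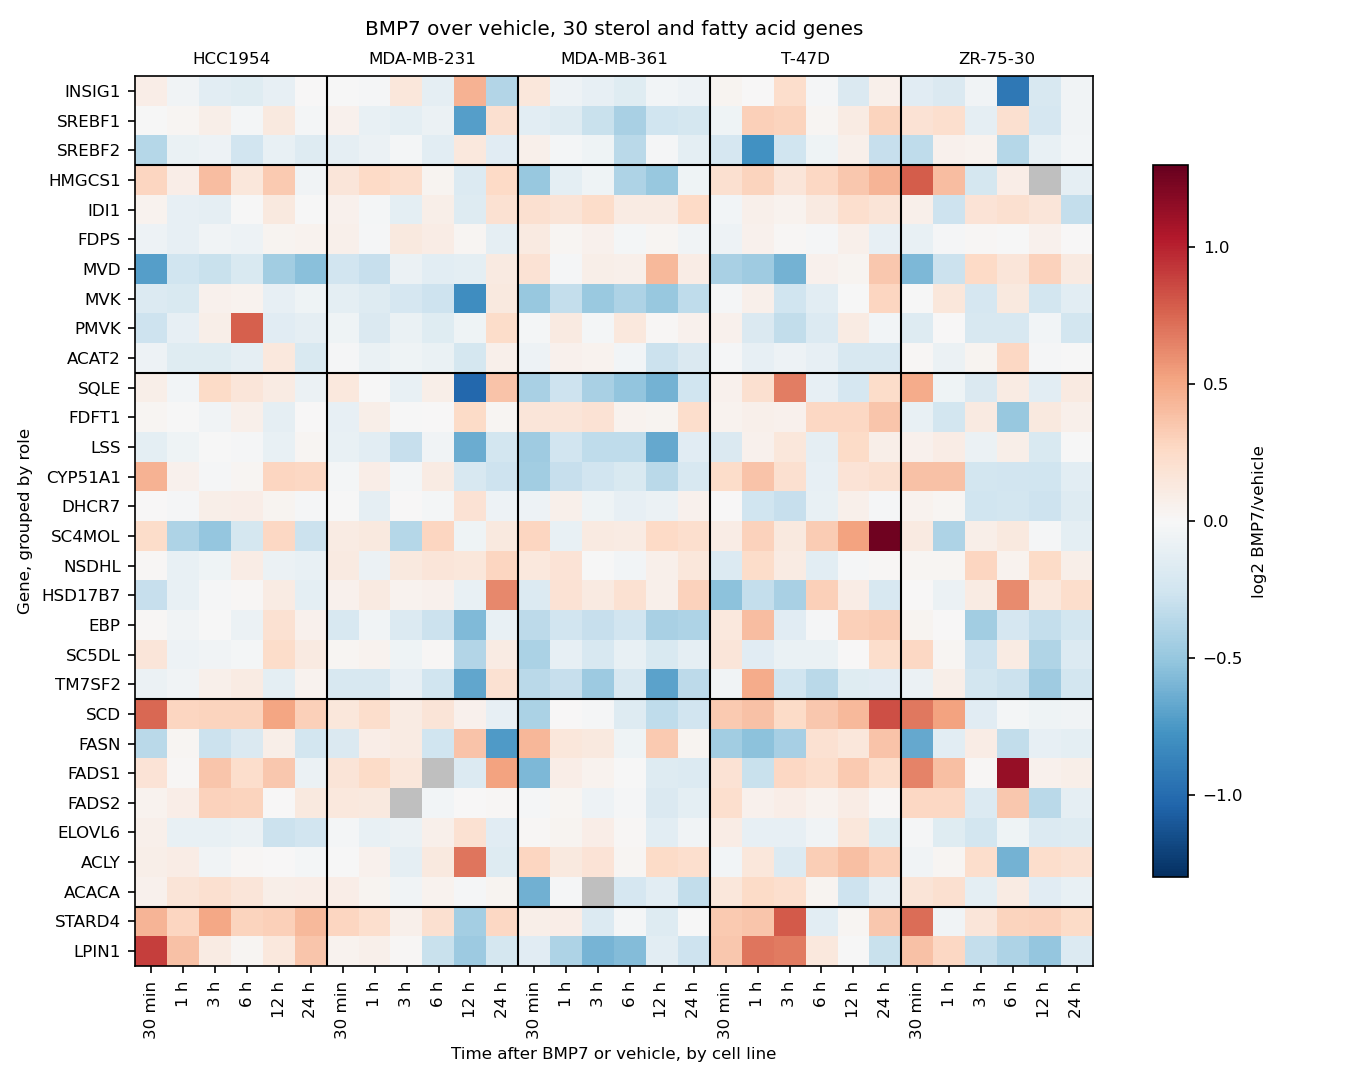
Log2 BMP7/vehicle of the 30 genes (rows, grouped by role from regulators at the top to lipid handling at the bottom) on the 30 arrays (columns, by cell line and time), with red for higher and blue for lower in BMP7-treated cells and grey for spots not well above background. Most cells are pale, 3 of 896 values reach 2-fold, and the MDA-MB-361 columns are mostly blue for MVK, SQLE, LSS, EBP, CYP51A1 and TM7SF2.

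Changes of 2-fold or more on a single array, the size the study used to call an event, were rare: 3 of 896 member values reached it. SC4MOL, a sterol methyl oxidase, was at 1.27 on the log2 scale in T-47D at 24 h, and FADS1, the delta-5 desaturase, at 1.13 in ZR-75-30 at 6 h. These are 0.223% of member values, next to 0.362% of all probe values that were higher by 2-fold. SQLE in MDA-MB-231 at 12 h, at -1.02, was the single value that was lower by 2-fold, 0.112% of member values next to 0.437% of all values. The FADS1 value came from the array with the widest spread of ratios, and the SC4MOL value from 1 of the 3 arrays least like their line. The MDA-MB-231 array at 12 h had a standard deviation of all log2 ratios of 0.40, and that at 24 h 0.39. On the arrays of that line up to 6 h it was 0.17 to 0.21. In T-47D the SC4MOL log2 ratio was 0.10, 0.30, 0.13, 0.33, 0.52 and 1.27 from 30 min to 24 h, highest on the last array, while in HCC1954 it was 0.24, -0.40, -0.50, -0.23, 0.27 and -0.28. The MDA-MB-231 array at 12 h held low values for several members at once, with MVK at -0.81, SREBF1 at -0.72, TM7SF2 at -0.67, LSS at -0.65 and EBP at -0.57, while at 24 h the same line had MVK at 0.13, SREBF1 at 0.21 and SQLE at 0.37.

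The ratio of 2 genes changed over the day, 1 in each direction. MVD, the diphosphomevalonate decarboxylase of the mevalonate branch, rose, and LPIN1, a phosphatidate phosphatase that also acts as a transcriptional coactivator, fell. They are 1 of 30 members higher and 1 of 30 lower, next to 5.89% of all probes that were higher and 2.14% that were lower at 12 and 24 h than in the first hour, so the members' share lies near the background. At an unadjusted p under 0.05 the count was 5. The members' median difference was -0.05, with 12 of 30 positive, and that of all probes was -0.01.

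MVD was read from 1 probe (hg18 chr16:87246486-87247239, minus strand). From 30 min to 24 h its log2 ratio was -0.42, -0.47, -0.61, 0.06, 0.03 and 0.35 in T-47D. It was -0.59, -0.28, 0.26, 0.16, 0.30 and 0.12 in ZR-75-30. In both lines the 2 late values lay above the 2 of the first hour. In MDA-MB-231 it was -0.25, -0.30, -0.07, -0.13, -0.12 and 0.12, and in MDA-MB-361 it was 0.19, -0.01, 0.08, 0.06, 0.42 and 0.10. HCC1954, at -0.72, -0.26, -0.29, -0.20, -0.45 and -0.54, stayed below 0 on all 6 arrays. The difference between late and first-hour arrays was 0.34 ± 0.096 (SE, 30 arrays of 5 lines, limma adjusted p = 0.0337), positive in 4 of 5 lines, from -0.01 in HCC1954 to 0.64 in T-47D and ZR-75-30. The SE of the time contrasts comes from the spread of single arrays around their line and period, not from the spread between lines.

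For LPIN1, read from the probe at hg18 chr2:11884558-11884617 (plus strand), the log2 ratio was 0.35, 0.69, 0.67, 0.14, -0.01 and -0.29 in T-47D. It was 0.38, 0.27, -0.31, -0.41, -0.50 and -0.18 in ZR-75-30. Both lines began above 0 and ended below it. MDA-MB-231 gave 0.05, 0.07, 0.02, -0.29, -0.47 and -0.23, and HCC1954 gave 0.90, 0.38, 0.11, 0.03, 0.13 and 0.37, above 0 on all 6 arrays. MDA-MB-361, at -0.15, -0.40, -0.60, -0.57, -0.13 and -0.27, was below 0 on all 6 and lowest at 3 h and 6 h. The difference between late and first-hour arrays was -0.41 ± 0.104 (SE, 30 arrays of 5 lines, limma adjusted p = 0.0284), negative in 4 of 5 lines. In every line the late arrays lay on other slides than the first-hour arrays, so slide and time cannot be told apart, and with scan batch as a term, or in the first scan batch alone, neither gene passed (0 of 30 members called). The same was found without MDA-MB-231, T-47D or ZR-75-30, or with normexp and median scaling. Almost no probe of any gene passed in these settings. Of 21011 probes, 1687 passed with all arrays, against 9, 7 and 3 without those lines in turn and 0 with that scaling. The fits that took account of scan batch called 4 and 5 probes. The loss of calls was therefore not particular to MVD and LPIN1.

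The remaining members had values between the 2 called genes. HSD17B7, a sterol ketoreductase, was at 0.23 with the difference positive in 5 of 5 lines (limma adjusted p = 0.109), and SQLE was at -0.17 with the difference negative in 5 of 5 lines (adjusted p = 0.396). FADS2, the delta-6 desaturase, was at -0.17 (adjusted p = 0.0937) and CYP51A1, the lanosterol demethylase, at -0.17 (adjusted p = 0.169). For TM7SF2 the further probe gave 0.30 (adjusted p = 0.0338) and the brightest -0.18 (adjusted p = 0.194), so its direction is unsettled. In all, 5 of 12 members with several tested probes had opposite signs between probes in this difference (MVK, SREBF1, CYP51A1, LSS and TM7SF2).

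The BMP7/vehicle ratio differed between lines for 14 of the 30 genes. By the limma F test over lines, 14 of 30 members passed, or 46.7%, next to 32.1% of all probes. They were HMGCS1, MVK and MVD of the mevalonate branch, SQLE, LSS, CYP51A1, SC4MOL, EBP and TM7SF2 of the sterol branch, the fatty acid genes SCD and ACACA, and SREBF1, STARD4 and LPIN1. The range between the highest and the lowest line ran from 0.38 for ACACA, the acetyl-CoA carboxylase, to 0.67 for LPIN1 on the log2 scale. Time points stand in for replicates in this test, and nearly every slide held 1 line. With slide as a random block 14 passed, next to 31.5% of all probes. Without the MDA-MB-361 arrays 2 of 30 members passed, next to 9.04% of all probes. Without HCC1954 9 members passed, next to 14.1% of all probes, and with the authors' processed values 9, next to 34.2%. With normexp and median scaling 0 members and 1 of 21011 probes did. In both line contrasts that follow, that setting also called 0 members. It called 165 of all probes (0.785%) in MDA-MB-361 and 232 (1.1%) in T-47D.

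Set against the mean of the other 4 lines, a contrast added after the line means were seen, MDA-MB-361 had a lower ratio for 13 of 30 members and a higher one for 1, MVD, next to 8.72% of all probes lower and 10.5% higher. In MDA-MB-361 the lowest, median and highest log2 ratio of the 6 arrays were -0.61, -0.42 and -0.26 for SQLE. They were -0.49, -0.44 and -0.31 for MVK, the mevalonate kinase, and -0.42, -0.32 and -0.25 for EBP, the sterol isomerase. Each of these 3 genes was below 0 on 6 of 6 arrays of the line. In MDA-MB-231 EBP was also below 0 on 6 of 6 arrays and MVK on 5 of 6, and SQLE on 3 of 6. HMGCS1 was at -0.49, -0.13, -0.05, -0.40, -0.49 and -0.06 from 30 min to 24 h in MDA-MB-361, and at 0.21, 0.29, 0.16, 0.27, 0.35 and 0.44 in T-47D. SCD was at -0.41, 0.01, -0.01, -0.17, -0.33 and -0.25 in MDA-MB-361 and at 0.74, 0.27, 0.29, 0.29, 0.51 and 0.31 in HCC1954. The contrast was -0.47 ± 0.106 (SE, limma adjusted p = 0.00699) for HMGCS1, -0.47 ± 0.0999 (adjusted p = 0.00523) for SCD and -0.46 ± 0.113 (adjusted p = 0.00934) for SQLE. LPIN1 (-0.43), FADS1 (-0.37), CYP51A1 (-0.37), MVK (-0.32), ACACA (-0.31), LSS (-0.30), STARD4 (-0.30), SREBF1 (-0.28), TM7SF2 (-0.27) and EBP (-0.27) were also lower, with limma adjusted p from 0.00801 to 0.0376, and MVD was higher by 0.32 ± 0.101 (adjusted p = 0.0308). FASN, at 0.32, did not pass. Without HCC1954 among the other lines 4 members passed, all lower, next to 620 of 21011 probes (2.95%), 366 of them lower.

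The further probes of these genes did not bear the lower ratio out. Of the 13 members lower in MDA-MB-361, 8 had a further tested probe, and of those 8 probes 0 were lower by the limma test, 2 were below 0 (HMGCS1 at -0.20 and SCD at -0.11) and 6 above it. For SREBF1 both probes passed with opposite signs, -0.28 (adjusted p = 0.025) from the probe at hg18 chr17:17656144-17656203 and 0.34 (adjusted p = 0.0246) from the probe at chr17:17656672-17656731, both on the minus strand. MVK had 0.19, TM7SF2 0.22, CYP51A1 0.14, FADS1 0.14 and LSS 0.10 from their further probes. The other 5 members (SQLE, EBP, ACACA, STARD4 and LPIN1) had no further tested probe. SC5DL, the lathosterol desaturase, was the reverse case: its further probe was lower (-0.33, adjusted p = 0.00696) while its brightest, at -0.18, did not pass. With the mean of all probes of a gene in place of the brightest, 9 members passed, 8 lower and 1 higher, next to 19.2% of all probes. With all tested probes split by brightness into 4 equal classes, the brightest class held 14 members, of which 9 were lower, and 9.78% of all its probes were lower. The part of probe brightness in the disagreement between probes was not tested.

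**Figure D2:**
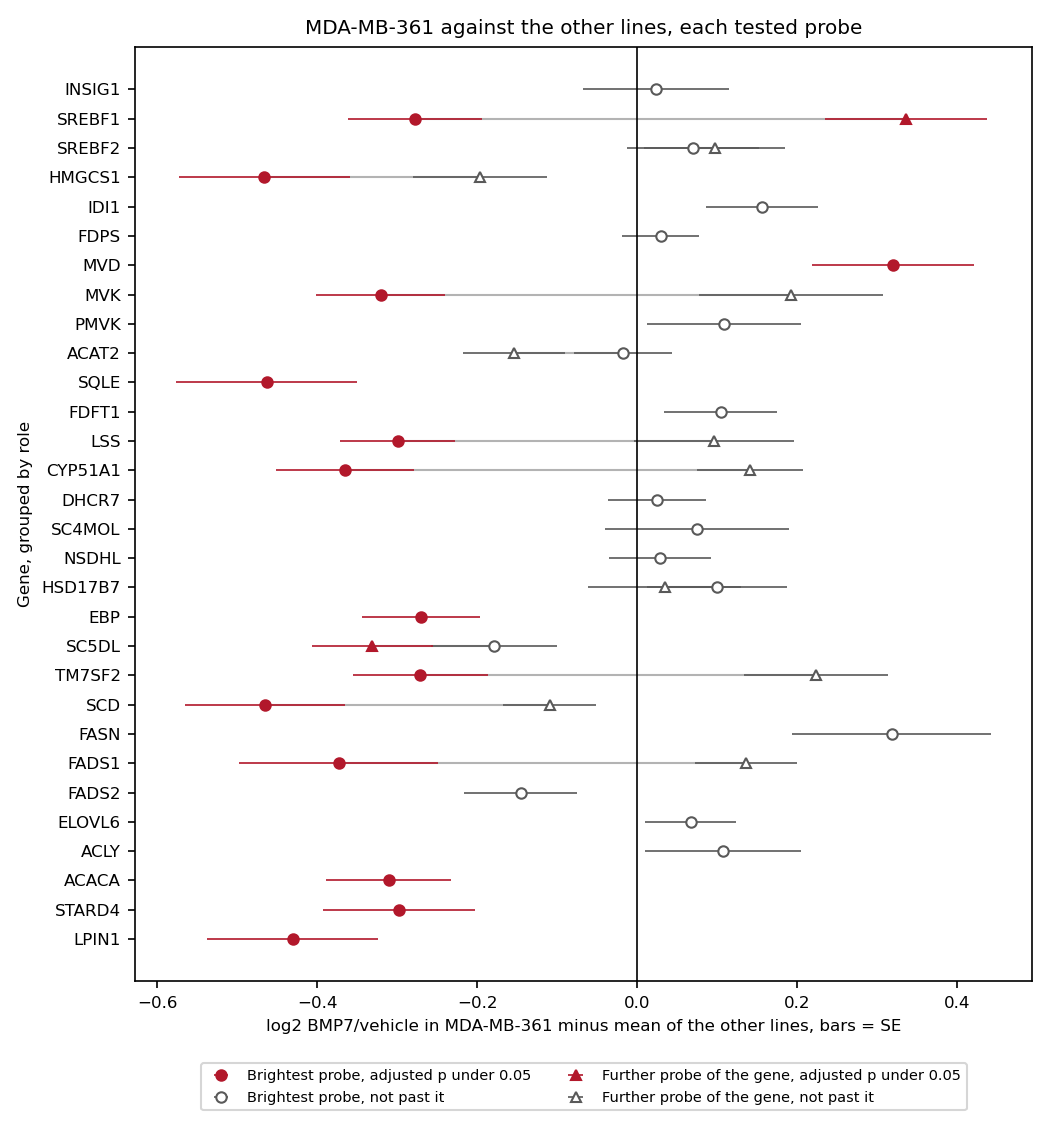
Log2 BMP7/vehicle in MDA-MB-361 minus the mean of the other 4 lines (x axis, bars are SE) for every tested probe of the 30 genes (y axis, grouped by role), with circles for the brightest probe, triangles for further probes and filled red symbols for an adjusted p under 0.05. The 13 red circles left of 0 are the lower members, and 6 of the 8 triangles of those genes lie right of 0.

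In T-47D more members were higher than lower. Against the other 4 lines, again a contrast added after the line means were seen, 6 of 30 members were higher and 1 lower, next to 8.6% of all probes higher and 10.2% lower. The higher genes were SC4MOL (0.44), EBP (0.35), LPIN1 (0.33), SCD (0.31), SREBF1 (0.24) and LSS (0.20), and HSD17B7 was lower at -0.26, with limma adjusted p from 0.00292 to 0.0484. Without the 3 arrays least like their line, of which 2 are T-47D arrays, 1 of 30 members passed, next to 7.4% of all probes, and without MDA-MB-361 2 did, next to 2110 of 21011 probes. Of the higher genes with a further tested probe, SREBF1 had -0.14 from it, SCD 0.02 and LSS 0.10, none of which passed. The reverse held for HMGCS1 and SC5DL, whose further probes were higher in T-47D (0.28 and 0.25, limma adjusted p = 0.0214 and 0.0246). Their brightest probes, at 0.23 and 0.07, did not pass. By the brightest probes HCC1954 had 1 member higher (LPIN1, 0.41, adjusted p = 0.0295) and 1 lower (MVD, -0.37, adjusted p = 0.034), next to 2.55% and 5.36% of all probes. The further probe of SC5DL was also higher there (0.31, limma adjusted p = 0.0263). The same contrast called 0 members in MDA-MB-231 and ZR-75-30.

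Genes of the same pathway outside the list were read in the same fits. Of 25 such genes, 21 were tested: 16 of synthesis and SREBP processing and 5 of sterol efflux and LXR response. Their mean over lines was called for 0 of 21, next to 0.8% of all probes. Late against first-hour arrays, 1 of 21 was higher, AACS, the acetoacetyl-CoA synthetase (0.22 ± 0.069, SE, limma adjusted p = 0.0434), and 0 were lower. Of all probes 5.89% were higher and 2.14% lower, so this share lies near the background. Between lines 4 of 21 passed, or 19%, a smaller share than the 32.1% of all probes. They were ELOVL1, a fatty acid elongase, GPAM, which starts triglyceride synthesis, and MBTPS1 and SCAP, which cleave and escort the SREBP precursors. By comparison the ratios of ID1, ID2 and ID3 all rose between the first hour and the late arrays, by 0.91, 0.91 and 0.80 on the log2 scale (limma adjusted p = 0.0253, 0.00155 and 0.0129). Their vehicle levels were lower late, with differences from -0.62 to -0.37, of which 0 of 3 passed. Slide and time cannot be told apart here either, and with scan batch as a term 4 of 21008 probes passed in the ratio contrast.

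In vehicle-treated cells most of the 30 genes had higher values late in the day than in the first hour, but no gene passed the test. The vehicle level is the log2 Cy3 signal relative to the 75th percentile of its array. Of 30 members 0 were called higher and 0 lower in 12 and 24 h against the first hour, next to 0.00952% and 0.0476% of all probes. The difference was positive for 25 of 30, with a median of 0.17, next to 10019 of 21011 probes and a median of -0.01 over all probes, and 9 members were at an unadjusted p under 0.05. By role the median was 0.27 for the 3 regulators, 0.09 for the mevalonate branch, 0.17 for the sterol branch, 0.18 for the fatty acid genes, which were positive in 7 of 7, and 0.60 for the 2 lipid handling genes. Of 10 proliferation genes 7 were positive, with a median of 0.10, and of the 21 other pathway genes 11 were, with a median of 0.01. The T-47D arrays had 27 of 30 members higher late (median 0.31), ZR-75-30 23 (0.28), MDA-MB-361 21 (0.06), MDA-MB-231 18 (0.22) and HCC1954 17 (0.11). In every line the late arrays lay on other slides than the first-hour arrays, so slide and time cannot be told apart in these counts. With slide as a random block, the correlation within a slide was 0.342 for the vehicle level, against 0.039 for the ratio.

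STARD4 had the largest vehicle difference, and it was positive in 5 of 5 lines. Its vehicle level in ZR-75-30 was -3.85, -2.78, -2.70, -2.88, -2.67 and -2.35 from 30 min to 24 h. In HCC1954 it was -1.35, -0.41, -0.83, -0.76, -0.89 and -0.17. Both lines were lowest at 30 min, on arrays of the second scan batch, to which no 12 or 24 h array belongs. The fit gave 0.65 ± 0.22 (SE, 30 arrays of 5 lines, limma adjusted p = 0.238), and 0.70 (adjusted p = 0.0283) without the 3 arrays least like their line. It was the single member called in that setting, next to 1.47% of all probes. With scan batch as a term it was 0.50 (adjusted p = 0.324), and within the first scan batch 0.45 (adjusted p = 0.19). SC4MOL was at 0.60 ± 0.23 (adjusted p = 0.305), INSIG1 at 0.54 ± 0.19 (adjusted p = 0.269) and CYP51A1 at 0.45 ± 0.14 (adjusted p = 0.216), each positive in 5 of 5 lines, and LPIN1 at 0.55 ± 0.18 (adjusted p = 0.233) and HMGCS1 at 0.45 ± 0.22 (adjusted p = 0.459), each positive in 4 of 5.

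In MDA-MB-231 the level of the pathway was highest on the 24 h array. The median vehicle level of the 30 genes there was 0.83, 0.87, 0.65, 0.80, 0.99 and 2.01 from 30 min to 24 h. INSIG1 was at 0.39, 0.54, 0.46, 1.19, 0.40 and 2.53, and HMGCS1 at -0.58, 0.41, 0.65, 0.38, 0.26 and 1.90. The 24 h value of each lay above the other 5, whereas at 12 h neither gene was above its 1 h value. In T-47D, SQLE was at 2.78, 2.56, 2.14, 3.38, 3.65 and 3.58, with every value from 6 h on above those before. The T-47D arrays from 6 h on shared a slide and the earlier ones lay on other slides, so slide and time cannot be told apart here. FASN in MDA-MB-361 was at -0.50, -0.13, 0.02, -0.30, -0.38 and 0.17, with late and first-hour values overlapping. The test of whether the vehicle change differed between lines called 0 of 30 members, next to 0% of 20928 probes, and 1 member, FADS2, was at an unadjusted p under 0.05.

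**Figure D3:**
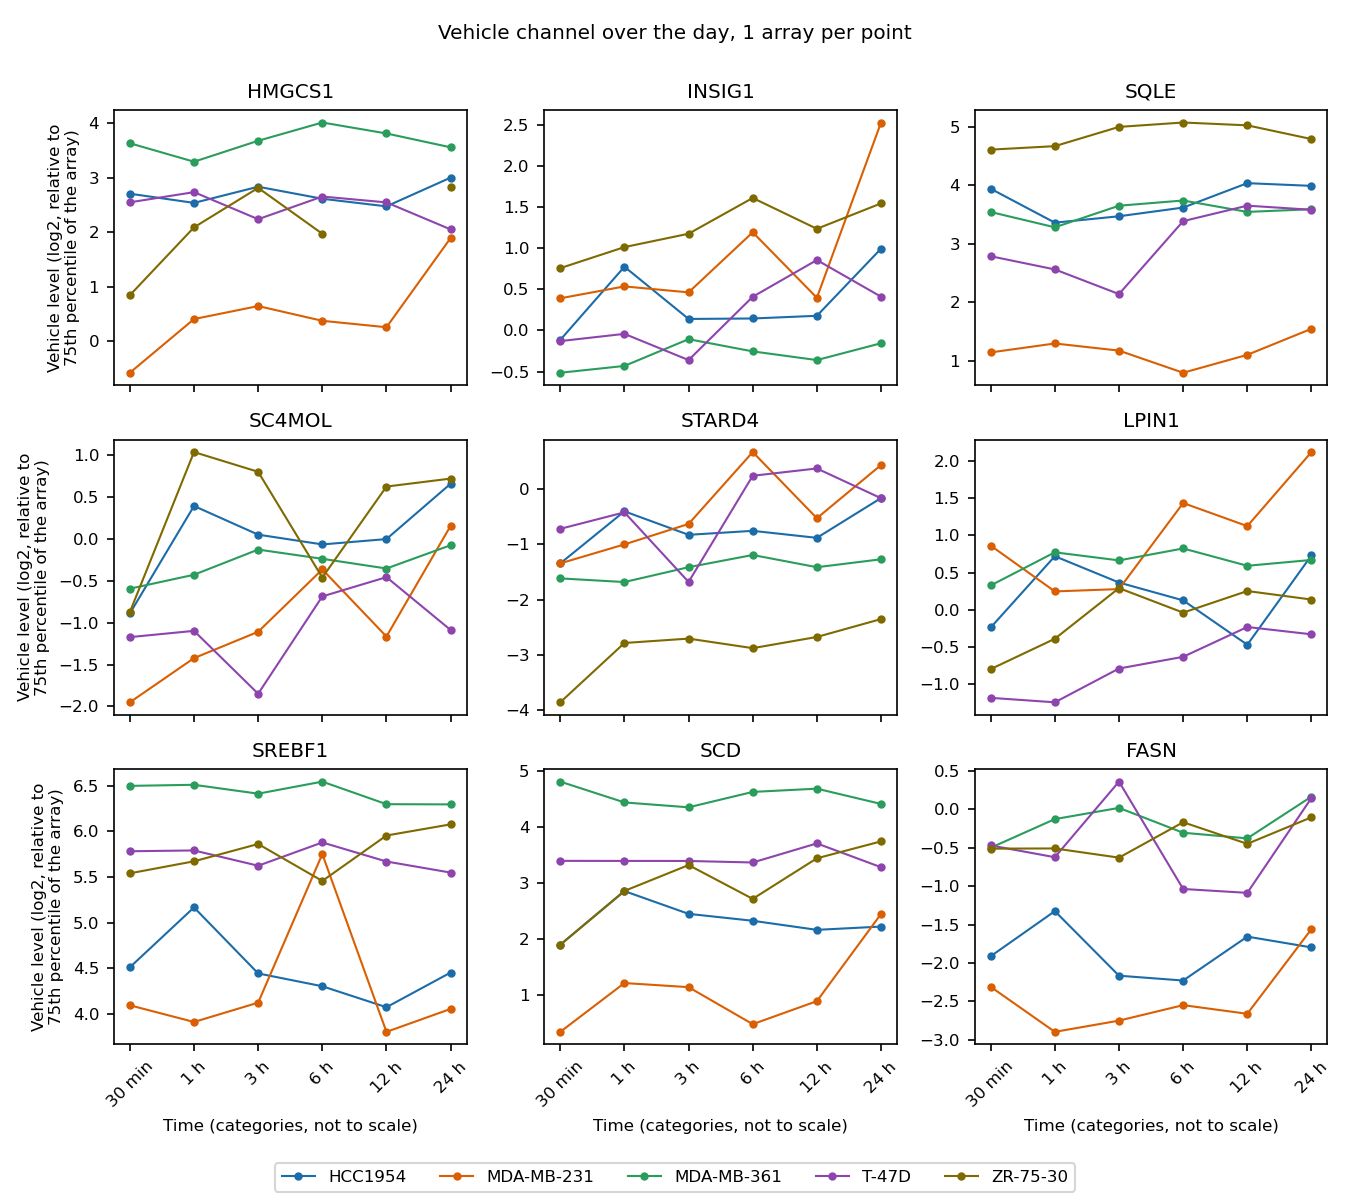
Vehicle level (y axis, log2 relative to the 75th percentile of the array) against time (x axis, categories from 30 min to 24 h) of 9 genes, with 1 coloured line per cell line and 1 array per point. INSIG1 and HMGCS1 in MDA-MB-231 are highest at 24 h, at 2.53 and 1.90, and SREBF1 in MDA-MB-231 has a single high value at 6 h, 5.75, on the array least like its line.

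The BMP7 channel of the same arrays gave differences of the same order. Its median over the 30 genes was 0.16 and 0 of 30 were called. SC4MOL was at 0.78, INSIG1 and STARD4 at 0.50 each, SREBF2 at 0.38 and ACLY, the ATP citrate lyase, at 0.33, with vehicle differences of 0.60, 0.54, 0.65, 0.27 and 0.20. LPIN1, at 0.13 in the BMP7 channel against 0.55 in the vehicle channel, and MVD, at 0.26 against -0.07, had the gaps that their ratios showed. The channels share an array, so they are not independent measurements.

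**Figure D4:**
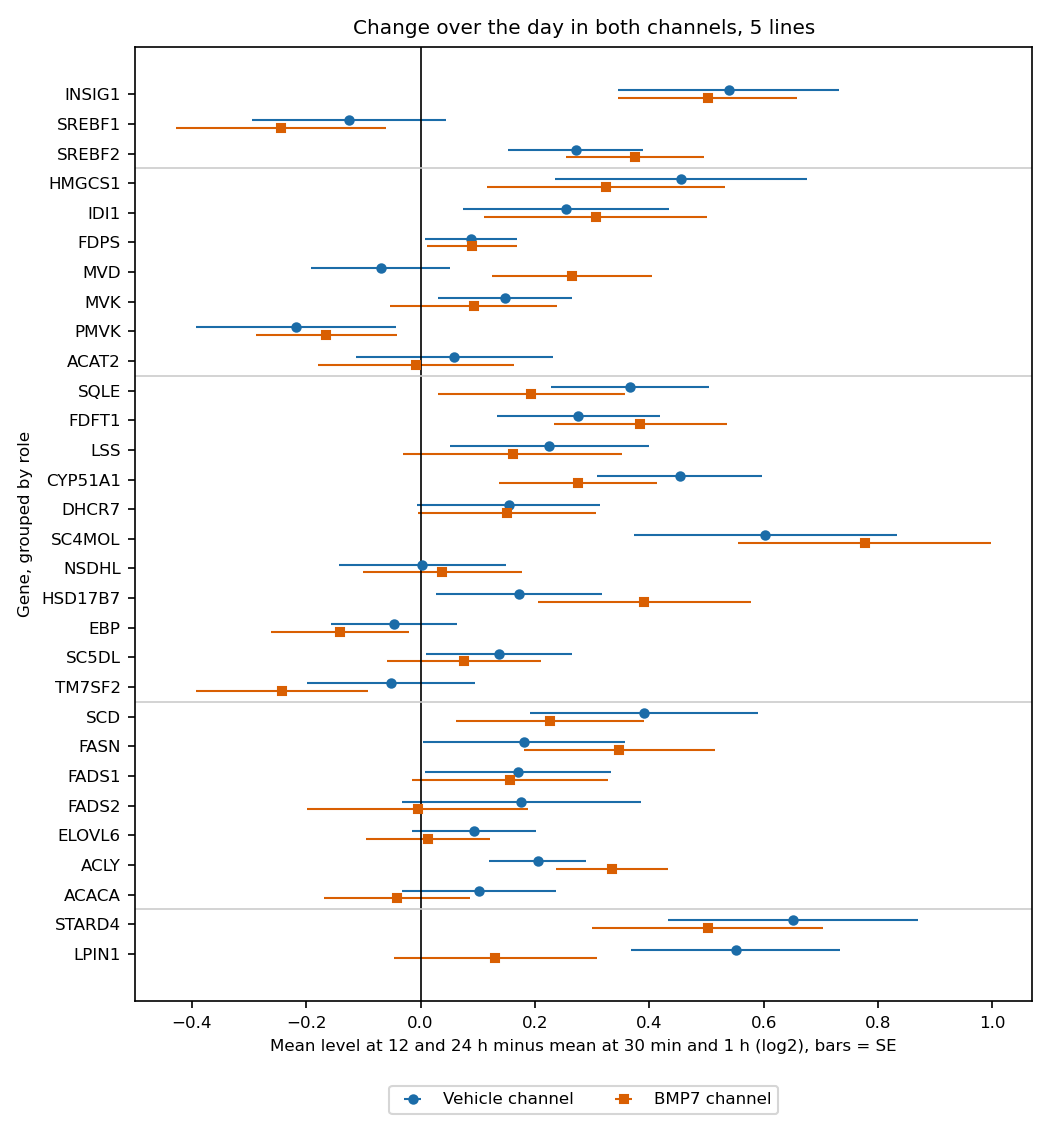
Mean level at 12 and 24 h minus the mean at 30 min and 1 h (x axis, log2, bars are SE from the spread of single arrays in the fit over 5 lines) of the 30 genes (y axis, grouped by role), with blue circles for the vehicle channel and orange squares for the BMP7 channel. In the vehicle channel 25 of 30 circles lie right of 0, and MVD and LPIN1 have channels that lie far apart.

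The lines differed widely in their basal levels. In the vehicle channel 29 of 30 members differed between lines by the limma F test, next to 93.1% of all probes. EBP was the exception, with line means within 0.29 on the log2 scale (adjusted p = 0.176). The widest range of line means was that of TM7SF2, 5.39, followed by FADS2 with 5.21, FADS1 with 4.32, SQLE with 3.68, SCD with 3.48 and HMGCS1 with 3.17.

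TM7SF2 split the lines into low and high. Its vehicle level was 0.12 ± 0.32 (SD, n = 6 times) in MDA-MB-231 and 1.12 ± 0.48 in HCC1954, against 4.63 ± 0.34 in ZR-75-30, 4.78 ± 0.09 in MDA-MB-361 and 5.51 ± 0.23 in T-47D. ZR-75-30 and MDA-MB-361 did not differ beyond their spread, and the 3 high lines lay above every array of the other 2. FADS2 had another order: HCC1954 was at -1.09 ± 0.40, ZR-75-30 at -0.27 ± 0.40, T-47D at 1.15 ± 0.17, MDA-MB-231 at 3.23 ± 0.97 (n = 5) and MDA-MB-361 at 4.12 ± 0.08. FADS1, which acts after FADS2 in making long polyunsaturated fatty acids, was likewise lowest in HCC1954, at -1.47, and highest in MDA-MB-231, at 2.85.

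SQLE was at 1.18 ± 0.25 in MDA-MB-231, 3.02 ± 0.61 in T-47D, 3.56 ± 0.15 in MDA-MB-361, 3.73 ± 0.29 in HCC1954 and 4.86 ± 0.20 in ZR-75-30, where the 3 lines in the middle overlapped. HMGCS1 was at 0.50 ± 0.80 in MDA-MB-231, 2.11 ± 0.81 in ZR-75-30 (n = 5), 2.47 ± 0.26 in T-47D, 2.70 ± 0.20 in HCC1954 and 3.67 ± 0.24 in MDA-MB-361. SCD followed with 1.08 ± 0.76 in MDA-MB-231, 2.32 ± 0.32 in HCC1954, 3.00 ± 0.66 in ZR-75-30, 3.42 ± 0.15 in T-47D and 4.56 ± 0.18 in MDA-MB-361. FASN had its lowest means in MDA-MB-231 (-2.45 ± 0.48) and HCC1954 (-1.85 ± 0.34) and lay between -0.45 and -0.19 in the other 3 lines, which did not differ beyond their spread. MDA-MB-231 was the lowest line for 11 of 30 members and the highest for 6, MDA-MB-361 the lowest for 8 and the highest for 6, and T-47D the highest for 11. The transcription factor gene SREBF1 was highest in MDA-MB-361 (6.43 ± 0.11) and lowest in MDA-MB-231 (4.29 ± 0.73), whose 6 h array, at 5.75, stood above its other 5.

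**Figure D5:**
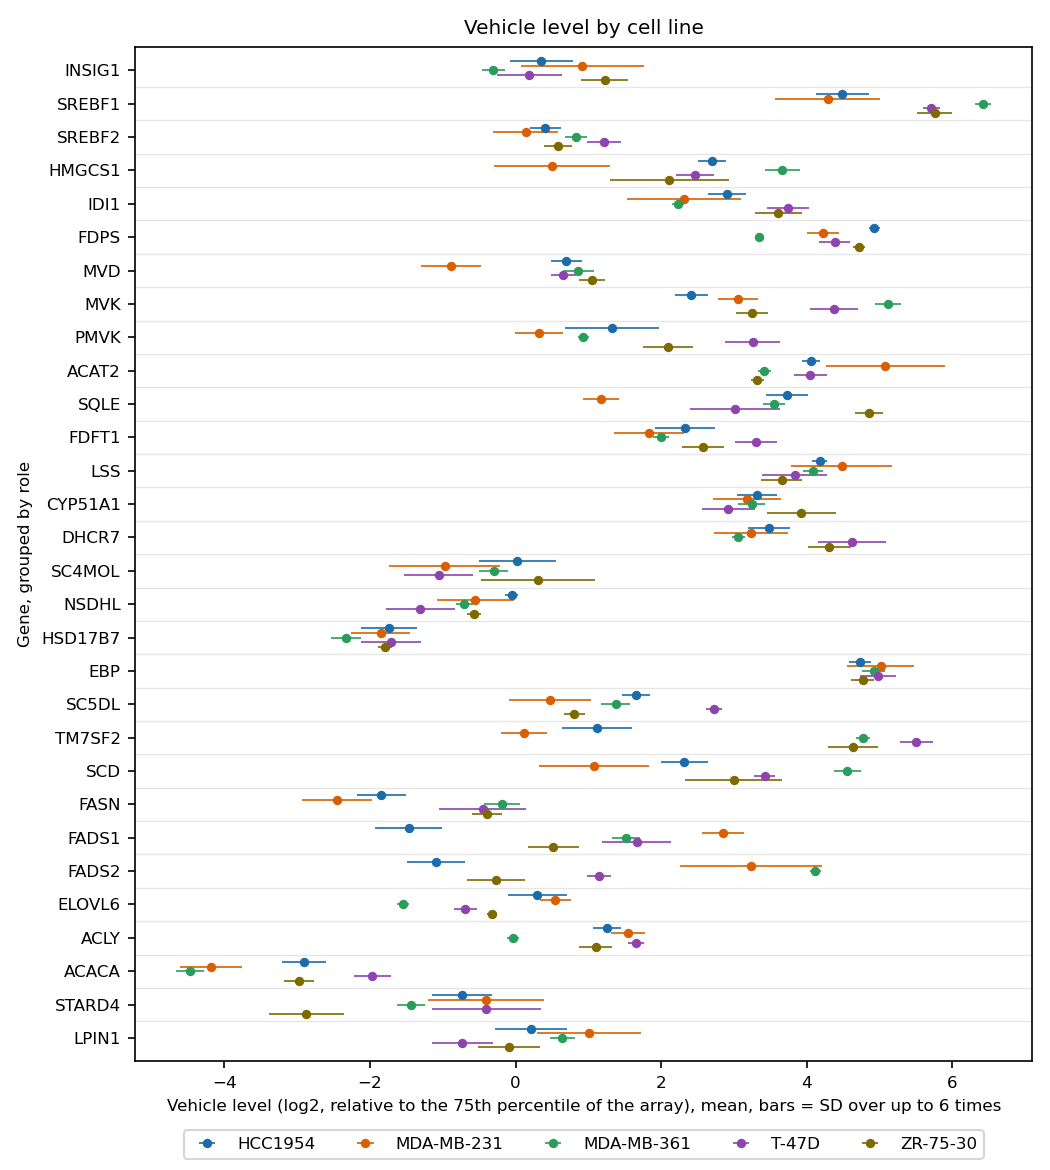
Vehicle level (x axis, log2 relative to the 75th percentile of the array) of the 30 genes (y axis, grouped by role) in the 5 lines, with points for the mean and bars for the SD over up to 6 times. TM7SF2, FADS2 and FADS1 spread the widest, by 5.39, 5.21 and 4.32, while the lines nearly coincide for EBP.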

How the data were processed

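The 30 deposited files are Agilent Feature Extraction output (version 9.5.1.1 per the file headers) of 2-colour 44K whole human genome arrays, with probe coordinates on hg18. The authors deposited, per spot, the log10 ratio of Cy5 over Cy3 and the processed intensity of each channel, both background-subtracted and dye-normalized by that software. Log ratios were turned to log2 and centred on each array's median. Control spots and spots marked as outliers were left out, and spots not well above background in both channels were set aside. A probe was tested if at least 4 of 6 arrays were left in each of 5 lines (21011 of 41000 probes). Tests used limma 3.58.1 in R 4.3.3 with Benjamini-Hochberg adjustment over all probes tested and a threshold of 0.05: the mean over lines, 12 and 24 h against 30 min and 1 h with line as block, and an F test over lines with time as block. The number of arrays limits the precision. Values of HMGCS1, INSIG1, SQLE, IDI1, LSS, SREBF1, SREBF2, FASN, SCD and of members past a threshold were to be named, the rest by role. The members and lists were chosen with earlier results of these data known. The authors' processed value table (log2 ratio) served as an alternative.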

Additional observations from a re-analysis of the deposited data

Results flagged for a closer look

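For 14 genes the log2 BMP7/vehicle differed between the 5 cell lines by the limma F test, adjusted over all probes tested (32.1% of which passed). The range between the highest and the lowest line was 0.6713 for LPIN1, 0.6233 for SCD, 0.5911 for SC4MOL, 0.5583 for SQLE, 0.5569 for HMGCS1 and 0.5492 for MVD. It was 0.4975 for EBP, 0.4778 for CYP51A1, 0.4132 for STARD4, 0.4131 for SREBF1, 0.4037 for MVK, 0.403 for LSS, 0.3921 for TM7SF2 and 0.382 for ACACA. The adjusted p-values of the limma F test ran from 0.00248 for EBP to 0.0465 for STARD4. Without the MDA-MB-361 arrays 2 of the 30 genes passed, next to 9.04% of all probes.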

How the results depend on the processing

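Each count below is of the 30 genes. For late against first-hour ratios, 2 were called. The count was 1 with normexp and loess, with 3 to 24 h set against 30 min, and without the 3 arrays least like their line. These settings called 0.671%, 5.08% and 1.81% of all probes. It was 0 with normexp and median scaling, without the filter on dim spots, in the first scan batch alone and with scan batch as a term. Those settings called 0% to 0.508% of all probes. With each line left out the count was 0 to 2 (0 without MDA-MB-231, T-47D or ZR-75-30), next to 0.0143% to 10.2%. The 14 that differed between lines became 0 with normexp and median scaling, and 9 with the authors' value table, next to 34.2% of all probes. With a line left out they were 2 to 15, next to 9.04% to 42.6%. The mean over lines went from 0 to 6, all higher, with normexp and median scaling, a scaling that moved the median of all probes by 0.11 and turned MVK to 0.0938 and TM7SF2 to 0.043. In MDA-MB-361 the 14 called became 0 with normexp and median scaling. They were 9 with the mean of all probes of a gene, which put SREBF1 at 0.0297, next to 19.2% of all probes. With a line left out they were 4 to 15 (4 without HCC1954), next to 2.95% to 26.1%. With the authors' table they were 11, 3 higher and 8 lower, next to 25% of all probes. In T-47D the 7 became 0 with normexp and median scaling, where EBP was at -0.0182 and SREBF1 at -0.132. The count was 3 with the authors' table, next to 18.1% of all probes, and 2 without the filter, next to 9.59%. It was 1 without the 3 arrays, next to 7.4%, and 2 to 8 with a line left out, next to 10% to 20.9%. Vehicle levels late against first gave 1 without those 3 arrays, next to 1.47% of all probes, and 0 with each line left out. In level, 27 to 29 genes differed between lines with a line left out, next to 85% to 91.8% of all probes. The cause of these moves was not tested. Over all probes, the 1687 calls late against first became 0 with normexp and median scaling, 141 with loess, 5 in the first scan batch alone and 4 with scan batch as a term. The 168 calls of the mean over lines became 2344 with normexp and median scaling. The 12 vehicle calls became 309 without the 3 arrays. Leaving out those 3 arrays and both line contrasts were chosen after seeing the data. No paired analysis was possible because each line and time has a single array, beyond the pairing of BMP7 with vehicle on each array and the blocks by line or time already in the fits.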
